A study of Gallus gallus with 6 samples.

Results

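The ductus arteriosus (DA) of the chick is a long vessel that joins the pulmonary artery to the aorta. Its aorta-sided part, the distal DA, lies between the pulmonary artery-sided part, the proximal DA, and the aorta itself. Each gene was therefore set against the midpoint of the neighbours of the distal DA, that is, the mean log2 intensity of the distal DA minus the average of the mean log2 intensities of the proximal DA and the aorta. This difference is called the departure. A gene that grades along the vessel in even log2 steps has a departure near 0. A gene whose distal DA level is held at that of one neighbour away from the other, or lies outside both, departs from the midpoint. So does a gene that grades unevenly, with the distal DA between its neighbours but nearer one of them. The comparison used all 6 arrays of the series, namely 2 of the distal DA, 2 of the proximal DA and 2 of the aorta, and 20804 probe sets.

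All tissues were taken from untreated Hypeco Nera chicken embryos, from the right DA and the descending part of the aorta, at the internal pipping (IP) stage, a late stage inside the shell at which oxygen is still low. Tissue of several embryos was pooled for each RNA sample, so that differences between single embryos were not measured. Nothing states that the duplicate arrays of a tissue were made from different pools, and p-values therefore measure the spread between arrays, which may be technical. The level of a gene in whole vessel wall also mixes the share of each cell type with the RNA per cell, and fewer cells of a type and less RNA per cell cannot be told apart.

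The DA carries blood past the lungs before birth or hatching and then closes, and in the bird it is the proximal, muscular part that closes whereas the distal part is built as an elastic artery. Its smooth muscle comes to a large extent from the neural crest. Contraction of the muscle and remodelling of the matrix under the endothelium, including hyaluronan, are the known steps of closure.

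The defining artery markers were *eln*, *myh11*, *tagln* and *acta2*, of which *acta2* is not given here. Of these markers, *eln* and *myh11* were high in all 3 tissues. *tagln*, the transgelin gene, was lower in the aorta, with means of 10.28 in distal DA, 11.32 in proximal DA and 7.785 in aorta. Elastin, *eln*, had a mean log2 intensity of 13.03 in distal DA, 12.62 in proximal DA and 13.20 in aorta, and *myh11*, the smooth muscle myosin heavy chain, had 12.14, 12.12 and 11.12 in the same order. The median of an array was 6.61 to 6.66 and its lower quartile 5.25 to 5.41. Intensities under the quartile are called dim below, since a log2 difference there can understate the difference in RNA.

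No departure passed an adjusted p of 0.05 in limma, with Benjamini-Hochberg adjustment over all 20804 probe sets. The share called was 0% above and 0% below the midpoint, and the smallest adjusted p was 0.1001. At an unadjusted p of 0.05, 563 probe sets lay above the midpoint (2.71%) and 526 below (2.53%), 5.23% in all. The median departure was 0.01, and the 5th and 95th percentiles were -0.29 and 0.30 on the log2 scale. Departures of 1 or more were found for 22 probe sets, and departures of -1 or less for 39.

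The number of calls depended on which probe sets were fitted together. Where only the 12300 probe sets with 1 gene symbol were fitted and adjusted, 41 were called above the midpoint (0.333%) and 25 below (0.203%), together 65 genes, and the smallest adjusted p in limma was 0.00209. The 8504 probe sets without 1 symbol gave 0 calls on their own, with 3.53% at an unadjusted p of 0.05, against 6.71% for those with 1 symbol. This restriction was chosen after the data were seen, and its calls are given below as calls among annotated probe sets, beside a count of 0 in the full fit. Without distal DA array 1 they numbered 7 above and 6 below, and without distal DA array 2, 8 above and 10 below. With the midpoint taken over linear intensities they numbered 3 above and 9 below.

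Distances to the neighbours are described with a margin of 0.5 on the log2 scale. Among the 41 calls above the midpoint, 12 lay at least that far above both neighbours, 18 lay within the margin of the proximal DA, 2 within the margin of the aorta and 9 between the neighbours. Among the 25 calls below, 14 lay below both neighbours, 6 near the proximal DA, 5 near the aorta and 0 between. Among all probe sets above the midpoint, 56 lay above both neighbours, 611 near the proximal DA, 461 near the aorta and 157 between. Below it, 81 lay below both, 765 near the proximal DA, 379 near the aorta and 111 between. Relative to these sizes, calls were more frequent outside both neighbours than near the proximal DA. A level outside both by the margin itself requires a departure of at least 0.5 in size.

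**Figure D1:**
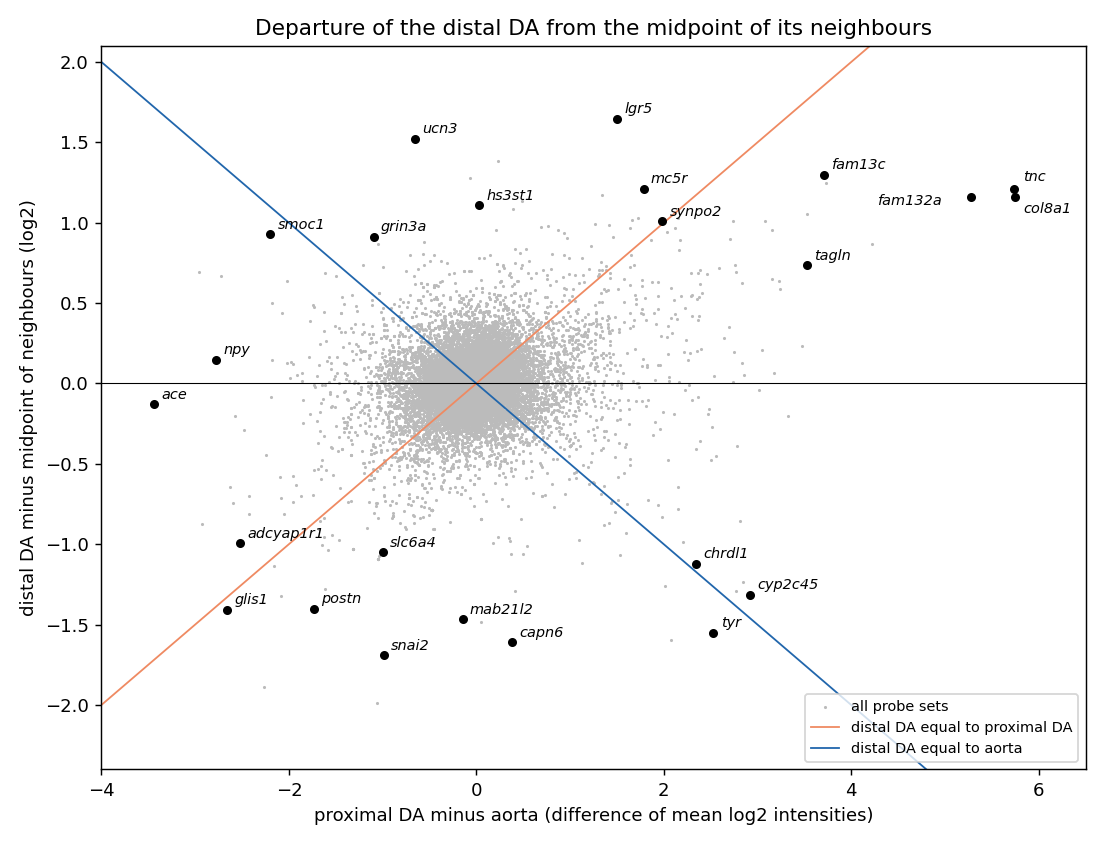
Each grey point is 1 of 20804 probe sets, with the difference between the mean log2 intensities of the proximal DA and the aorta on the x axis and the departure of the distal DA from their midpoint on the y axis. On the orange line the distal DA equals the proximal DA (*synpo2*, *glis1*), on the blue line it equals the aorta (*smoc1*, *chrdl1*), and *lgr5* and *ucn3* at the top and *snai2* and *capn6* at the bottom lie outside both.

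The largest departure above both neighbours among annotated calls was that of *lgr5*, the R-spondin receptor that strengthens Wnt signalling. It had 9.61 and 10.37 on the distal DA arrays, 8.97 and 9.22 on the proximal DA arrays and 7.51 and 7.67 on the aorta arrays. The distal DA arrays lay above the other 4, and the departure was 1.65 ± 0.22 (SE, n = 2 arrays per tissue, limma adjusted p = 0.139 over all probe sets and 0.00823 among annotated probe sets). The distal minus proximal DA difference of 0.895 was not called (adjusted p = 0.319 over all probe sets and 0.0842 among annotated probe sets), and the proximal DA was itself higher than the aorta for *lgr5* (adjusted p = 0.0146).

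*ucn3* encodes urocortin 3, a peptide ligand of the type 2 receptor for corticotropin-releasing factor. Its log2 intensities were 8.21 and 8.35 on the distal DA arrays, 6.55 and 6.31 on the proximal DA arrays and 6.86 and 7.31 on the aorta arrays, a departure of 1.52 ± 0.16 with no overlap. *ucn3* was the 1 probe set of 20804 (0.00481%) that was higher in the distal DA than in each neighbour at an adjusted p of 0.05 in the pairwise limma contrasts of the full fit, by 1.85 against the proximal DA (adjusted p = 0.0238) and by 1.19 against the aorta (adjusted p = 0.0300). The call was lost with the replicate number as a block and without any 1 of the arrays except aorta array 2, where the adjusted p against the aorta was 0.0280.

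For *hs3st1*, a sulfotransferase that makes the antithrombin-binding type of heparan sulfate, the neighbours were level and the distal DA stood alone, with 7.11 and 7.26 on the distal DA arrays, 6.21 and 5.97 on the proximal DA arrays and 5.92 and 6.20 on the aorta arrays. *angpt1*, the angiopoietin that activates the TIE2 receptor of endothelial cells, had 6.91 and 7.04 on the distal DA arrays, 5.75 and 6.06 on the proximal DA arrays and 5.75 and 5.95 on the aorta arrays. The departures were 1.11 ± 0.14 and 1.10 ± 0.14 (SE). Both genes were higher in the distal DA than in the aorta (adjusted p = 0.0230 and 0.0225), while the adjusted p against the proximal DA was 0.0649 for *hs3st1* and 0.0679 for *angpt1*.

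The other 8 annotated calls above both neighbours were *tusc3* (0.95), *plce1*, a phospholipase C (0.88), *pcp4*, a calmodulin-binding peptide (0.84), *gas6*, a ligand of the TAM receptor kinases (0.78), *adgrg2* (0.76), *ppfia2* (0.72), the leptin receptor *lepr* (0.69) and *frmpd4* (0.68, dim in 4 of 6 arrays). In each of the 12, both distal DA arrays lay above all 4 arrays of the neighbours, which held for 824 of all probe sets (3.96%). The 12 were picked on these same arrays for a distal DA mean above both neighbours. The separation of their arrays follows largely from that choice and is no added evidence. Larger departures with more spread were not called in either fit. *scube1*, a secreted EGF-domain protein, had 7.54 and 8.34 on the distal DA arrays, 6.06 and 7.20 on the proximal DA arrays and 6.14 and 7.25 on the aorta arrays, where the second array of every tissue was the higher one. *itgbl1* departed by 1.17 and *fam150b*, now known as a ligand of the ALK receptor kinase, by 1.14.

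Genes below both neighbours were led by *snai2*, the zinc finger repressor of epithelial genes that marks migrating neural crest. Its brighter probe set had 7.41 and 7.72 on the distal DA arrays, 8.55 and 8.98 on the proximal DA arrays and 9.89 and 9.61 on the aorta arrays. A second probe set of the gene had 6.92 and 7.54 on the distal DA arrays, 8.69 and 8.69 on the proximal DA arrays and 9.80 and 9.69 on the aorta arrays. No distal DA value reached those of the neighbours, and the departures of -1.69 ± 0.18 and -1.99 ± 0.18 (SE) had the adjusted p of 0.114 and 0.1001 over all probe sets and of 0.00408 and 0.00209 among annotated probe sets. For both probe sets the proximal DA was in turn lower than the aorta (adjusted p = 0.0349 and 0.0298).

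*capn6*, a calpain without protease activity that binds microtubules, had 6.66 and 7.39 on the distal DA arrays, 8.72 and 8.93 on the proximal DA arrays and 8.55 and 8.33 on the aorta arrays. It was lower than the proximal DA by -1.80 (adjusted p = 0.0480) and lower than the aorta by -1.42 (adjusted p = 0.0394). It was 1 of 2 probe sets (0.00961%) that were lower than each neighbour in the full fit, the other having no gene name. The calls for *capn6* were lost under quantile normalization again, cyclic loess, median centring, the replicate block, the linear scale and without any 1 array.

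*mab21l2*, needed for eye and body wall development in the mouse, had 7.49 and 6.82 on the distal DA arrays, 8.48 and 8.62 on the proximal DA arrays and 8.69 and 8.70 on the aorta arrays. *map1b*, a microtubule-associated protein of growing neurons, had 7.83 and 7.53 on the distal DA arrays, 9.11 and 9.24 on the proximal DA arrays and 9.03 and 8.49 on the aorta arrays. For both genes the neighbours differed from each other by less than 0.5 and the distal DA arrays lay below all of theirs.

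*slc6a4*, the serotonin transporter, had 7.43 and 7.64 on the distal DA arrays, 8.08 and 8.09 on the proximal DA arrays and 9.06 and 9.11 on the aorta arrays, with a departure of -1.05 ± 0.12 (SE). *postn*, the matricellular protein periostin, had 7.85 and 8.53 on the distal DA arrays, 8.38 and 9.07 on the proximal DA arrays and 10.47 and 10.45 on the aorta arrays. For *postn* the distal and proximal DA overlapped, with a difference of -0.54 (95% interval -1.20 to 0.13), and the distal DA was lower than the aorta by -2.27 (adjusted p = 0.0130). The other annotated calls below both were *akr1d1*, a steroid reductase (-1.06), *cntn4*, a neuronal adhesion protein (-0.98), *vopp1* (-0.96), *cpamd8* (-0.90), the ligand *bmp7* (-0.86), the netrin *ntn3* (-0.72) and 1 of 4 probe sets of *lamp3* (-1.60), the others departing by -0.69 to -1.065 and lying near the aorta. In 13 of the 14 probe sets both distal DA arrays lay below all 4 arrays of the neighbours, which held for 791 of all probe sets (3.8%). Here too the probe sets were picked on these same arrays for a mean below both neighbours, so that this count is no added evidence.

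**Figure D2:**
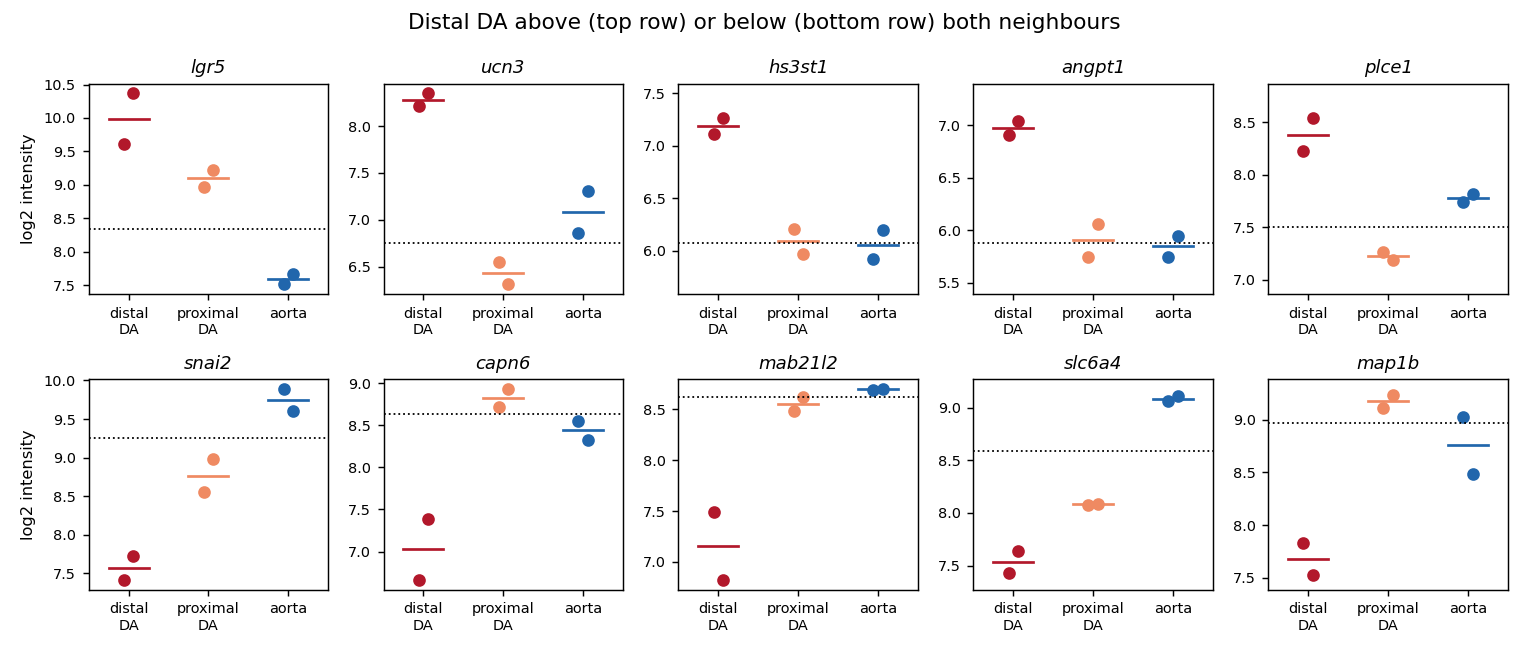
Log2 intensity of each array (points) and tissue mean (bars) for genes whose distal DA level lay above (top row) or below (bottom row) both neighbours, with the midpoint of the neighbours dotted. Vertical scales differ between panels and do not start at 0; in all 10 panels both distal DA points lie on 1 side of the other 4.

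By count, the largest class of annotated calls held genes with the distal DA level near the proximal DA and far from the aorta. The 18 above the midpoint and the 6 below were all also called against the aorta in the full fit, where 198 probe sets were higher in the distal DA than in the aorta (0.952%) and 134 were lower (0.644%). Against the proximal DA, 0 of these 24 were called, where the background was 19 higher (0.0913%) and 33 lower (0.159%). The 24 were picked on these same arrays for a departure and for a distal DA mean within the margin of the proximal DA. Their counts against the aorta and the proximal DA follow largely from that choice and are no added evidence. That the test against the proximal DA was missed does not show equal levels. All 24 intervals of the distal minus proximal DA difference at 95% confidence lay between -0.68 and 0.87, and 20 of them held 0. The other 4 were those of *mylk* (0.15 to 0.81), *col13a1* (0.03 to 0.81), *adamts17* (0.05 to 0.68) and *carhsp1* (-0.66 to -0.00135).

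Several of them act in muscle. *synpo2*, an actin-binding protein of smooth muscle and Z-discs, had 10.14 and 10.12 on the distal DA arrays, 10.01 and 10.22 on the proximal DA arrays and 8.15 and 8.11 on the aorta arrays. The distal minus proximal DA difference was 0.01 (95% interval -0.32 to 0.35), and the distal DA exceeded the aorta by 2.0 (adjusted p = 0.00195). *sorbs2*, *fhl2* and the myosin light chain kinase *mylk* departed by 1.01, 0.89 and 0.72. For *mylk* the distal DA was highest, by 0.48 against the proximal DA, just inside the margin, and by 0.96 against the aorta. *atp2a3*, the SERCA3 calcium pump, departed by 1.01 and lay in the same class, but its name came from the study's tables, so that it was not among the annotated probe sets.

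*has2*, the hyaluronan synthase whose product fills the intimal cushion of the mammalian DA, had 10.05 and 9.80 on the distal DA arrays, 9.70 and 9.82 on the proximal DA arrays and 7.74 and 8.33 on the aorta arrays. Its distal minus proximal DA difference was 0.17 (95% interval -0.34 to 0.67). *kdr*, the main VEGF receptor of endothelial cells, had 8.32 and 8.21 on the distal DA arrays, 8.22 and 8.49 on the proximal DA arrays and 6.33 and 6.15 on the aorta arrays. *mc5r*, a melanocortin receptor, had 7.99 and 7.76 on the distal DA arrays, 7.45 and 7.66 on the proximal DA arrays and 5.43 and 6.11 on the aorta arrays. Both parts of the DA lay above the aorta in all 3 genes. Others of the class were *adgrg6* (1.03), the nuclear receptor *nr4a3* (0.99), *col13a1* (0.91), *chad* (0.90), *gfra4* (0.91), the microRNA gene *mir27b* (0.78), *ly6e* (0.71), the neurotrophin receptor *ntrk3* (0.71), the kinase *nuak1* (0.70) and the matricellular *ccn2* (0.65). Of these, *mir27b* was dim in the aorta.

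On the low side, *glis1*, a zinc finger transcription factor, had 6.10 and 6.69 on the distal DA arrays, 6.49 and 6.46 on the proximal DA arrays and 9.33 and 8.93 on the aorta arrays. *adcyap1r1*, the receptor of the vasodilator peptide PACAP, had 7.41 and 7.51 on the distal DA arrays, 7.12 and 7.27 on the proximal DA arrays and 10.02 and 9.41 on the aorta arrays. In both genes the DA arrays lay more than 1.5 below the lower aorta array. *avbd12*, a β-defensin (-1.0025), *atp6v1c2*, a proton pump subunit that was dim in the DA (-0.96), *kcnq3*, a potassium channel subunit (-0.84) and *carhsp1* (-0.69) completed the annotated calls.

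Fewer genes lay within the margin of the aorta. *smoc1*, a calcium-binding matricellular protein, had 9.44 and 9.57 on the distal DA arrays, 7.46 and 7.49 on the proximal DA arrays and 9.56 and 9.79 on the aorta arrays, so that the distal DA exceeded the proximal DA by 2.03 (adjusted p = 0.0238) and differed from the aorta by -0.17 (95% interval -0.52 to 0.18). *grin3a*, an NMDA receptor subunit, had 7.64 and 8.08 on the distal DA arrays, 6.27 and 6.53 on the proximal DA arrays and 7.46 and 7.53 on the aorta arrays. Both its distal DA arrays lay above the other 4, and its distal DA differed from the aorta by 0.365 (95% interval -0.07 to 0.80). *smoc1* and *grin3a* were the 2 annotated calls above the midpoint in this class. *nebl*, the actin-binding nebulette (0.86), and *ptpro*, a receptor tyrosine phosphatase (0.64), had the same pattern and were not called.

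The study listed 30 genes as low in the proximal relative to the distal DA. That list was chosen on these arrays from the distal and proximal DA, one side of the departure, so that its counts are a description and no independent evidence of direction. Of the 30 probe sets, 28 lay above the midpoint, with a median of 0.65 (0.39 on the linear scale, 25 above 0), and 12 were higher in the distal than in the proximal DA at an adjusted p of 0.05 in limma. With the margin of 0.5, 8 lay above both neighbours, 12 near the aorta, 10 between and 0 near the proximal DA.

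Beside the genes given with their values in other paragraphs, the members above both were *nell2* (0.80), whose arrays overlapped between tissues, and *tenm1*, a teneurin (0.75). Those near the aorta were *adam11*, which the study lists as *adam22* (0.72), *c12orf75* (0.67), *mir103a2* (0.61), *epb41l3* (0.54), *loc431350* (0.47), *cpxm2* (0.34), *sema3a*, a secreted guidance cue (0.33), and *c1qtnf3* (0.32). Of these, *loc431350* was dim in 4 of 6 arrays and *mir103a2* in 2. A second probe set of *adam11*, not in the study's list, departed by 0.18 and lay within the margin of both neighbours. Those between were *hpse2*, a heparanase relative (0.69), *col23a1* (0.50), *loc419409* (0.44), *gdf5*, a BMP-type ligand (0.39), *hgf*, hepatocyte growth factor (0.15), *col15a1* (0.13) and the μ opioid receptor *oprm1* (-0.20). On the linear scale *hgf* and *col15a1* departed by -0.24 and -0.17. *hpse2*, *col23a1*, *loc419409* and *gdf5* departed there by 0.04, 0.11, 0.095 and 0.13, and *oprm1* by -0.72.

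*hpse2* had 9.74 and 9.67 on the distal DA arrays, 7.77 and 7.29 on the proximal DA arrays and 10.43 and 10.55 on the aorta arrays. *gdf5* had 7.35 and 7.26 on the distal DA arrays, 6.0 and 6.06 on the proximal DA arrays and 7.82 and 7.79 on the aorta arrays. In both genes the 3 tissues did not overlap, and the distal DA stood closer to the aorta on the log2 scale.

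The 5 annotated calls below the midpoint near the aorta had a high level only in the proximal DA. *chrdl1*, a BMP antagonist, had 6.97 and 7.39 on the distal DA arrays, 9.22 and 9.73 on the proximal DA arrays and 7.27 and 6.99 on the aorta arrays. *comp*, a cartilage and tendon matrix protein, had 6.77 and 6.60 on the distal DA arrays, 8.10 and 8.20 on the proximal DA arrays and 6.63 and 6.79 on the aorta arrays. The proximal DA arrays exceeded the other 4 in both genes.

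*tyr*, the tyrosinase of pigment cells, had 4.45 and 4.41 on the distal DA arrays, 6.58 and 7.91 on the proximal DA arrays and 4.55 and 4.88 on the aorta arrays, so that 4 of its 6 values were dim and the departure of -1.55 was set by the proximal DA arrays. *cyp2c45*, a cytochrome P450 placed here among lung markers, had 7.10 and 6.42 on the distal DA arrays, 9.90 and 9.17 on the proximal DA arrays and 6.43 and 6.80 on the aorta arrays. The remaining call was *loc427816*, named tenascin-R-like in the study's tables, which had 5.80 and 5.47 on the distal DA arrays, 7.21 and 7.21 on the proximal DA arrays and 5.57 and 6.02 on the aorta arrays. *hpgds*, a prostaglandin D synthase (-1.29), and *gpnmb*, a pigment cell glycoprotein (-1.23), were not called. Their proximal DA arrays differed by more than 1.3 on the log2 scale, as did those of *tyr*, which was called. *hpgds* was dim in 4 of 6 arrays.

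**Figure D3:**
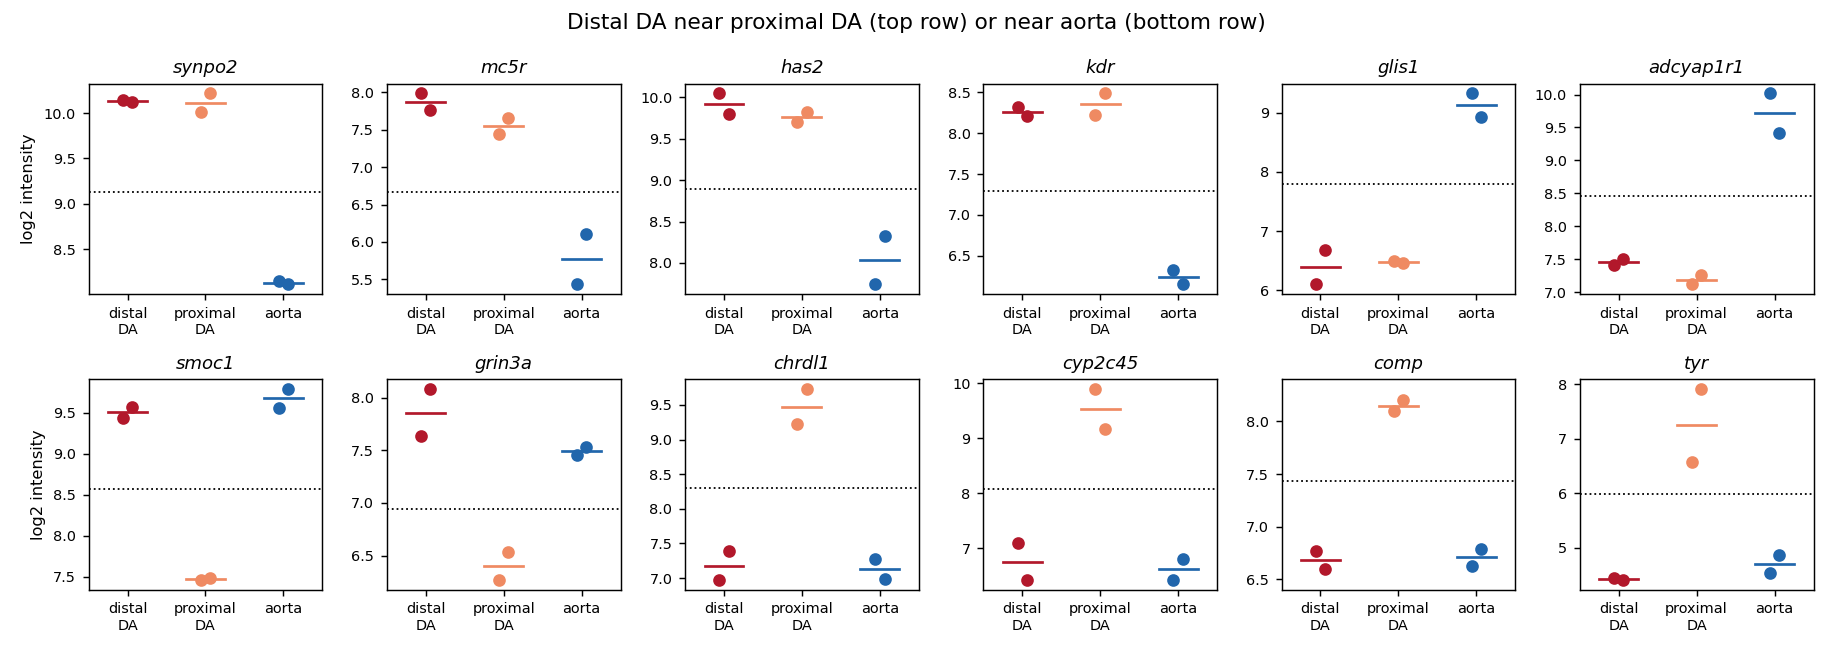
Log2 intensity of each array (points) and tissue mean (bars) for genes with the distal DA near the proximal DA (top row) or near the aorta (bottom row), with the midpoint of the neighbours dotted. Vertical scales differ between panels and do not start at 0; *synpo2* and *glis1* show both parts of the DA together, and *smoc1* and *tyr* the distal DA with the aorta.

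Several of the steepest gradients of the vessel also departed upward, some of them on the log2 scale only. *tnc*, the matricellular tenascin C, had 8.99 and 9.17 on the distal DA arrays, 10.60 and 10.87 on the proximal DA arrays and 5.09 and 4.91 on the aorta arrays. These aorta values were dim, and the departure was 1.21 ± 0.14 (SE). A second, on average dimmer probe set of *tnc* had 8.15 and 8.26 on the distal DA arrays, 9.07 and 9.41 on the proximal DA arrays and 6.15 and 5.84 on the aorta arrays, with a smaller departure of 0.59 ± 0.16. *col8a1*, a short-chain collagen of remodelling vessels, had 10.24 and 9.55 on the distal DA arrays, 11.56 and 11.65 on the proximal DA arrays and 5.74 and 5.98 on the aorta arrays. *fam132a*, a secreted C1q-like protein, had 10.40 and 9.99 on the distal DA arrays, 11.73 and 11.62 on the proximal DA arrays and 6.20 and 6.60 on the aorta arrays. All 3 genes lay between their neighbours, as did the G protein-coupled receptor *gpr20* (1.055), which was called among annotated probe sets.

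Where the midpoint was taken over linear intensities, which a mixture of both neighbours' RNA in equal parts would give, the departures of these genes turned negative, to -0.69 for *tnc*, -0.70 for *col8a1* and -0.50 for *fam132a*. *tagln*, the contractile marker transgelin, went the same way with 0.73 on the log2 scale and -0.14 on the linear scale. Those of *fam13c*, *mgp* and *acta1* were 1.30, 1.24 and 0.95 on the log2 scale and 0.31, 0.28 and 0.22 on the linear scale. Genes outside both neighbours moved less, with 1.504 for *lgr5*, 1.47 for *ucn3* and -1.78 for the brighter *snai2* probe set. Departures of 1 or more numbered 8 on the linear scale, and departures of -1 or less 72.

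Some of the widest differences between the neighbours showed the distal DA close to the log2 midpoint. *ace*, the angiotensin-converting enzyme, had 8.83 and 8.72 on the distal DA arrays, 7.29 and 7.08 on the proximal DA arrays and 10.59 and 10.66 on the aorta arrays, with a departure of -0.13 ± 0.13 (SE). *npy*, the vasoconstrictor neuropeptide Y, had 10.11 and 10.34 on the distal DA arrays, 8.45 and 8.93 on the proximal DA arrays and 11.34 and 11.59 on the aorta arrays, with a departure of 0.15 ± 0.17. In linear terms these were -0.98 for *ace* and -0.44 for *npy*.

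**Figure D4:**
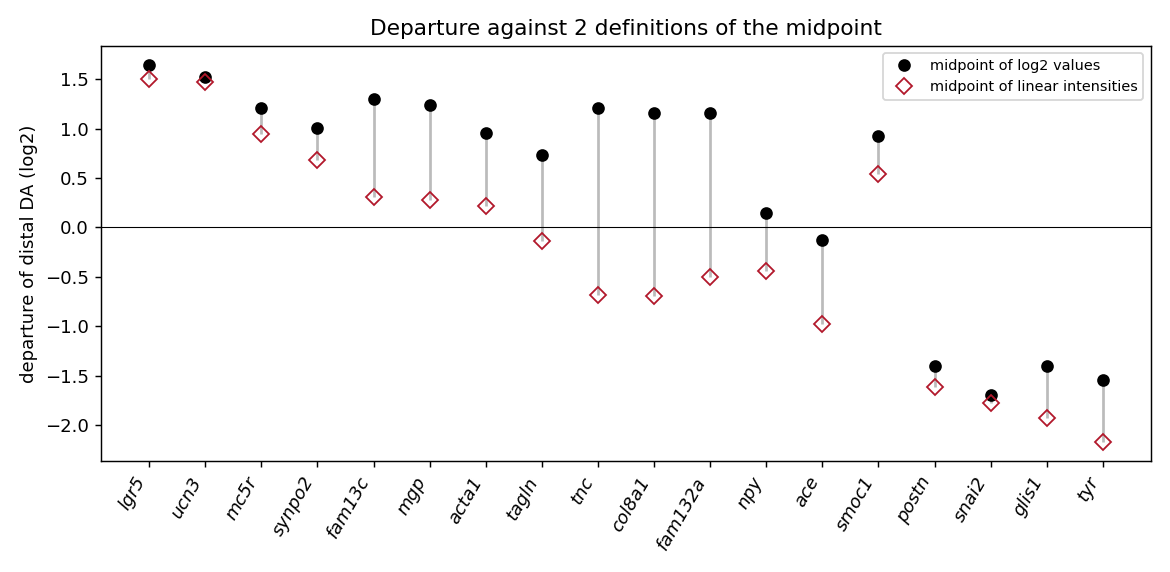
Departure of the distal DA (y axis, log2) from the midpoint of the log2 values (filled points) and from the log2 of the midpoint of linear intensities (open diamonds) for 18 named genes. *tnc*, *col8a1*, *fam132a*, *tagln* and *npy* cross 0, whereas *lgr5*, *ucn3* and *snai2* stay on the same side.

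Over all probe sets with a difference between the neighbours, the distal DA lay nearer the proximal DA more often than nearer the aorta on the log2 scale. The proximal DA was higher than the aorta in 692 probe sets (3.33%), of which 439 (63.4%) had a distal DA level nearer the proximal DA and 249 nearer the aorta. It was lower in 486 (2.34%), of which 306 (63.0%) lay nearer the proximal DA and 180 nearer the aorta. On a scale from 0 at the aorta to 1 at the proximal DA, the median position of the distal DA was 0.59 in both sets, and it was 0.57 and 0.60 for the single distal DA arrays in the first set and 0.60 and 0.61 in the second. No test was made of these shares, since probe sets share their arrays. The linear midpoint is never lower than the log2 midpoint, which by itself moves departures downward. On the linear scale, 366 of the 692 lay below the midpoint (52.9%), which in that set is the aorta side, and 326 above. The lean toward the proximal DA was thus not seen there. Of the 486, 377 lay below (77.6%), which in that set is the proximal DA side.

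Gene lists were described by their members, each at its probe set with the highest mean, beside all 11528 genes with 1 symbol. Of all these genes, 5688 lay above and 5761 below the midpoint, with a median departure of 0. At an unadjusted p of 0.05 they numbered 328 above (2.85%) and 316 below (2.74%). The contractile list had the highest median. All 14 measured members lay above the midpoint, 9 of them at an unadjusted p of 0.05, with a median of 0.39 (0.17 on the linear scale). *synpo2*, *mylk* and *tpm1* (0.72) were called among annotated probe sets. *myh11* lay at the proximal DA level with a departure of 0.52, and *tagln* lay between the neighbours.

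Of 19 endothelial genes, 16 lay above the midpoint and 9 did so at an unadjusted p of 0.05, with a median of 0.29 (0.14 on the linear scale) and 0 below at that p. Beside *kdr*, these included *vwf*, von Willebrand factor (0.68), *mmrn2* (0.63) and *pecam1* (0.44). The log2 of the summed endothelial intensities was 13.04 and 12.97 on the distal DA arrays, 13.26 and 13.38 on the proximal DA arrays and 12.12 and 12.13 on the aorta arrays. Their part in the departures of *kdr* and *angpt1* was not tested.

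Blood cell genes lay above the midpoint in 16 of 18 cases, with a median of 0.17. At an unadjusted p of 0.05 there were 5 of them above (27.8%, against 2.85% of all genes). The α-globin *hbad* departed by 0.95 and the anion exchanger *slc4a1* by 0.56. Their summed level was 12.94 and 13.22 on the distal DA arrays, 12.62 and 13.18 on the proximal DA arrays and 12.66 and 12.80 on the aorta arrays, so that the distal and proximal DA overlapped and the distal DA lay above the aorta. Leukocyte genes numbered 0 at an unadjusted p of 0.05 among 28 measured.

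Pigment cell genes lay below the midpoint in 18 of 21 cases and lung and airway epithelial genes in 18 of 25. At an unadjusted p of 0.05 there were 7 (33.3%) and 6 (24%) below, against 2.74% of all genes. The summed level of the pigment list was 10.33 and 10.23 on the distal DA arrays, 10.83 and 11.45 on the proximal DA arrays and 9.999 and 10.11 on the aorta arrays. That of the lung list was 11.03 and 10.93 on the distal DA arrays, 11.78 and 11.78 on the proximal DA arrays and 10.86 and 10.93 on the aorta arrays. Both lists were thus highest in the proximal DA samples, *tyr* and the surfactant gene *sftpa2* being dim in the distal DA and the aorta, and their part in the departures of *chrdl1*, *cyp2c45* and *lamp3* was not tested. *mc5r* was the 1 pigment list member above the midpoint at an unadjusted p of 0.05, and *scnn1a* and *scnn1b*, epithelial sodium channel subunits, were the 2 such members of the lung list (0.47 and 0.52).

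Cell cycle genes lay below the midpoint in 26 of 34 cases, with a median of -0.14. At an unadjusted p of 0.05 there were 0 above and 7 below (20.6%, against 2.74% of all genes). Among the 7 were *rrm2* (-0.54), *mcm4* (-0.50), *top2a* (-0.44) and *cdk1* (-0.34). The differences were small, and 0 members were called in either fit. In the list of neural crest, forkhead and T-box factors, 12 of 59 lay below (20.3%) and 3 above (5.08%) at that p. Beside *snai2* and *glis1*, the low members included *barx2* (-0.74), *sox10*, a factor of neural crest, Schwann and pigment cells (-0.49), and *tbx20* (-0.43), and the high ones *twist1* (0.54). *barx2* was dim in both parts of the DA.

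**Figure D5:**
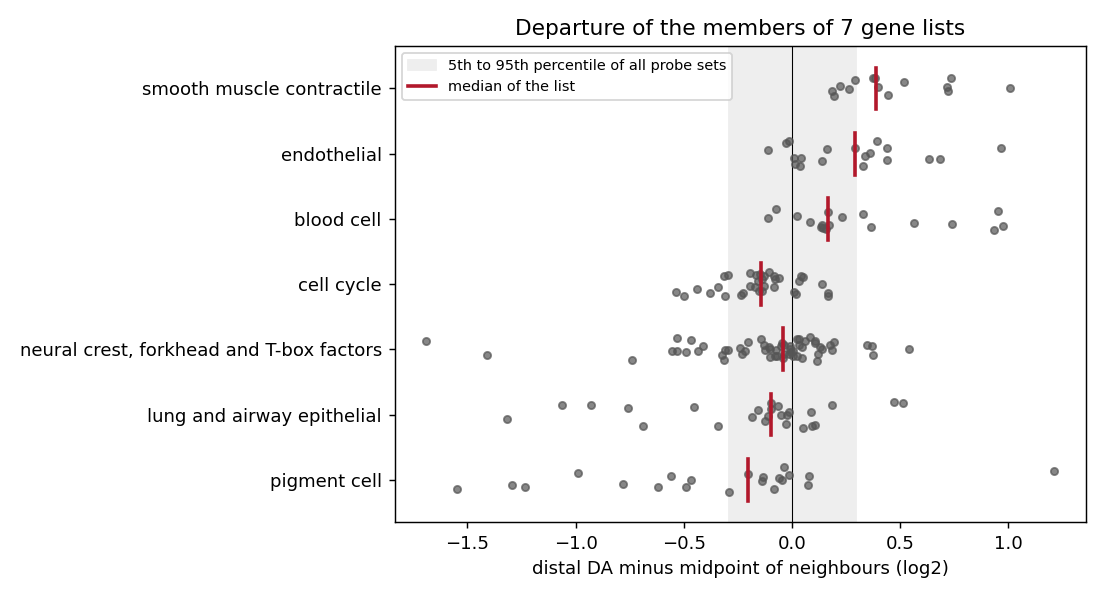
Departure of the distal DA from the midpoint (x axis, log2) for each measured member (points) of 7 gene lists, with the list median in red and the 5th to 95th percentile of all probe sets, -0.29 to 0.30, in grey. All 14 contractile members lie right of 0, and most pigment cell and cell cycle members lie left of it.

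Matrix, vasoactive and channel genes had members on both sides of the midpoint, in some lists in unequal numbers. All genes had 2.85% above and 2.74% below at an unadjusted p of 0.05. Of 41 proteases and inhibitors of matrix, 9 lay above (22.0%) and 1 below (2.44%) at that p, with *adamts12* (0.74) and *adamts17* (0.66) the highest. Other matrix genes had 10 above (22.2%) and 6 below (13.3%) among 45, and the collagens 5 above (15.6%) and 4 below (12.5%) among 32. *lamb1*, a laminin chain of basement membranes (0.69), was called among annotated probe sets and lay between its neighbours.

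The vasoactive list had 4 above (6.90%) and 5 below (8.62%) among 58 at an unadjusted p of 0.05, against 2.85% and 2.74% of all genes. In it *ednra*, the endothelin receptor that contracts smooth muscle, departed by 0.67 and lay at the proximal DA level, and *ednrb* departed by -0.62. Among 43 prostaglandin and cyclic nucleotide genes, 9 lay above (20.9%) and 3 below (6.98%) at that p. *slco2a1*, the prostaglandin transporter, had a mean of 9.34 in distal DA, 9.09 in proximal DA and 7.87 in aorta (departure 0.86). *gucy1a3*, a subunit of the nitric oxide receptor, had 7.21 and 8.01 on the distal DA arrays, 5.65 and 5.51 on the proximal DA arrays and 8.21 and 8.40 on the aorta arrays and lay nearer the aorta level. The potassium and calcium channel list had 6 above (6.74%) and 4 below (4.49%) among 89 at an unadjusted p of 0.05. The potassium channel subunits *kcnmb1* (0.69) and *kcnma1* (0.55), which form the large-conductance calcium-activated channel of smooth muscle, both lay above the midpoint and near the proximal DA. The potassium channel genes *kcnq3* (-0.84) and *kcnd2* (-0.51) lay below the midpoint, also near the proximal DA.

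Some of the remaining lists also had uneven counts at an unadjusted p of 0.05. Cartilage, tendon and bone genes had 8 above and 3 below among 27, and fibroblast and adventitial genes 7 above and 1 below among 33. Elastic fibre genes had 3 above and 2 below among 12, and mesothelial genes 0 above and 3 below among 14. The leading members of the remaining lists, by the smallest p, had mostly smaller departures. On the high side they were *adipoq*, the adipocyte hormone adiponectin (0.73, called among annotated probe sets), *cyp26b1*, a retinoic acid hydroxylase (0.69), the lipase *lpl* (0.68), the calcium channel *cacna1h* (0.65), *adamtsl1* (0.62), the Wnt antagonist *sfrp2* (0.59), *adcy2*, an adenylyl cyclase (0.59), the Notch ligand *jag1* (0.48), *plod2*, a collagen lysyl hydroxylase (0.44), *fbn2*, a fibrillin (0.42), *hoxa11* (0.32), *gcm2* (0.27) and *mybpc1* (0.21). *ca2*, a carbonic anhydrase of the blood cell list, departed by 0.97. *gcm2* and *mybpc1* did not reach an unadjusted p of 0.05. *hoxa11* was dim in 5 of 6 arrays and *mybpc1* in 4 of 6. On the linear scale *cacna1h* departed by -0.083.

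On the low side they were *aldh1a3*, a retinoic acid-making enzyme (-0.77), the guidance receptor *robo2* (-0.74), the neuronal tubulin *tubb3* (-0.68), *emilin2* (-0.65), the mesothelial list's *lrrn4* (-0.60) and *ezr* (-0.50), the lymphatic factor *prox1* (-0.49), the phosphodiesterase *pde7b* (-0.48), *ly86* (-0.47), *hoxb4* (-0.37), *stc2* (-0.37), *myh15* (-0.35), the serotonin receptor *htr2a* (-0.34), *avd* (-0.32), *tshr* (-0.27), *maml3* (-0.21) and *itga9* (-0.13). Of these, *ly86*, *avd*, *tshr*, *maml3* and *itga9* did not reach an unadjusted p of 0.05. Nor did a second probe set of *hoxb4*, which departed by -0.08. *prox1* and *htr2a* were dim in all 6 arrays, and *tshr* and *myh15* in 4 of 6.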

How the data were processed

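Total RNA (100 ng per array) was labelled by the authors for the Chicken Gene 1.0 ST array of Affymetrix. The deposited log2 values were made by the authors with RMA, which corrects background, quantile normalizes the arrays and summarizes probes, and they are rounded to 2 decimals. RMA gives all arrays nearly the same distribution, so a shift common to all genes of a tissue cannot be seen. The precision is limited by the 2 arrays per tissue. No probe set was filtered, and 1645 shared all their values with another. Of all probe sets, 12300 had 1 gene symbol in the array annotation, 256 several and 8248 none; 7 of those without 1 symbol took names from the study's tables. No reads, and hence no depth, exist for arrays.

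All 6 arrays entered 1 limma fit (limma 3.58.1, R 4.3.3) with tissue means as terms, eBayes without trend, 3 residual and 4.40 prior degrees of freedom and a median SE of 0.15 for a departure. The p-values were adjusted by Benjamini-Hochberg over all probe sets, with a threshold of 0.05. The code of the fit was run on simulated data with independent noise and known departures. That run gives no error rate for the calls made here. The linear departure is the log2 of the mean linear intensity of the distal DA minus the log2 of the average of the neighbours' means.

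By plan the text was to name the 15 largest called departures per direction and up to 8 called ones per class. With nothing called in the full fit, the 15 per direction were those with the smallest p, not the largest size. The class rule then named none. The leading members of 35 gene lists were likewise taken by the smallest p. The study's table of genes low in the proximal relative to the distal DA was named in full. Calls among annotated probe sets, *eln*, *myh11* and other list members given by value were named after their values were seen. The comparison, the members and the lists were chosen with earlier results of these data known. Alternatives were trend and robust eBayes, further normalizations, brighter probe sets, a linear midpoint, a replicate block, each array left out, other margins and sizes, and gene medians. PCR and histology were not analysed here.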

Additional observations from a re-analysis of the deposited data

How the results depend on the processing

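The departures followed over the alternatives numbered 51. They were the 15 named per direction, other named ones of at least 1 in size and those called against both neighbours. All kept their sign under each alternative, except *tnc*, *col8a1* and *fam132a* on the linear scale (-0.685, -0.697 and -0.504). Among the other named genes, the departures of *nell2* and *col15a1* changed sign without 1 of the arrays, to -0.16 and -0.0875. The counts of 0 calls above and below in the fit of all probe sets stayed 0 under trend and robust eBayes, quantile normalization again, cyclic loess, median centring, the linear midpoint, a size of 1 and without each array, as did the counts by position under margins of 0.3 and 0.7. Nothing states that the replicate numbers pair the samples. Correlations of same-numbered deviations were 0.321 for distal and proximal DA, 0.199 for distal DA and aorta and -0.0339 for proximal DA and aorta. Same-numbered arrays of the distal DA and each neighbour thus varied together in part, and the source of this was not tested. The replicate block also left 0 calls. The brighter 0.5 of the probe sets gave 1 call above and 3 below, all outside both neighbours, with 2 list members among them, and 6 lower than both neighbours pairwise. The other alternatives that changed the probe sets fitted were chosen after the data were seen, except gene medians, which were planned for the list members. With 1 gene symbol only there were 41 above and 25 below, of which 12 above both, 14 below both, 24 near the proximal DA and 7 near the aorta, with 34 list members, and 6 higher and 9 lower than both pairwise. Gene medians, taken over all probe sets with that symbol, gave 43 above and 27 below with 35 list members, and the brightest probe set of each gene 43 and 28. The brighter 0.25 gave 3 and 6, and the brighter 0.75, identical rows counted once and probe sets without 1 symbol gave 0 each. Among annotated probe sets the calls numbered 3 above and 9 below on the linear scale, 43 and 23 with the block, of which 32 and 18 were in common with the 41 and 25, and 7 to 37 above and 6 to 29 below without 1 array. Probe sets lower than both neighbours pairwise, 2 in the full fit, numbered 4 with trend and robust eBayes, 1 each under quantile normalization, cyclic loess and median centring, 0 on the linear scale and 0 with the block, and 0 to 2 without 1 array. Probe sets higher than both, 1 in the full fit, numbered 0 with the block and 0 to 1 without 1 array. Where 1 array is left out, its partner is taken to vary as the other tissues do.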
